A study of Mus musculus with 15 samples.

Results

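Longitudinal stretch of neonatal mouse cardiac myocytes was compared between 4 h and 30 min. Of the 15 RNA libraries of the study, 6 entered this comparison directly: 3 from cells held for 4 h and 3 from cells held for 30 min under stretch whose primary axis was longitudinal. Genes were kept when they reached 1 FPKM (fragments of RNA per length of transcript and per sequenced library) in at least 3 of the 15 libraries. With entries for microRNAs and small nucleolar RNAs left out, 12005 of the 13657 genes in the deposited table were tested. All groups were C57BL/6 cells on elastic silicone (PDMS). The 4 h and 30 min longitudinal groups, the 4 h and 30 min transverse groups and the unstretched control each came from 3 separate stretch devices, named A, B and C. Stretch was static and biaxial, 14% along the primary axis and 3.6% along the other. Neonatal myocytes in culture are immature cells without the loading history of an adult heart, and 1 unstretched group served as the control for both durations. The comparison therefore asks how RNA levels under a held longitudinal stretch differed between the early and the later time. Without an unstretched group for each duration, the effects of stretch and of elapsed time in culture cannot be told apart.

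Cells that are stretched or stimulated first transcribe immediate early genes, which need no new protein synthesis. Their products, among them the Fos, Jun and Egr transcription factors, act on later target genes, and the transcripts are usually short-lived. Feedback inhibitors such as the MAP kinase phosphatases and Sprouty proteins are induced by the same pathways and limit them. In heart muscle, mechanical load is known to raise such genes, and over longer times genes of natriuretic peptides, the sarcomere and ribosome production.

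The libraries were of similar but not equal depth. Relative depth was read from the most frequent ratio of each library to 30 min transverse A, over genes under 1 FPKM in both. Set to 1 in the deepest library, it ranged from 0.777 to 0.943 in the 4 h longitudinal libraries and from 0.829 to 0.934 in the 30 min ones. The most frequent ratio rested on 24 to 44 genes in these libraries. Within groups, 1 axis of variation held 54.7% of the variance over genes. In the longitudinal groups both C libraries stood high on it (loadings of 0.30 at 4 h and 0.35 at 30 min). The longitudinal A and B libraries stood below 0. In the transverse groups the C libraries stood below 0 (-0.22 at 4 h and -0.43 at 30 min), and 30 min transverse B was highest of all (0.55). The sign of the axis was set so that Nppb was positive, so the side of Nppb is no finding. Nppb was highest in the C library of both longitudinal groups, and the calls were also counted without both C libraries. Of the gene lists described below, 3 then held calls: the immediate early genes (11), the feedback inhibitors (3) and the inflammatory genes (1, Ch25h). All other lists then held 0. Myocyte markers were abundant: Myl2, a ventricular myosin light chain, averaged 9495 FPKM at 4 h and 9714 FPKM at 30 min, and 17 myocyte markers were in the table.

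At 4 h, 597 of 12005 genes (4.97%) differed from 30 min at an adjusted p under 0.05 in limma. Of these, 226 were higher (1.88%) and 371 lower (3.09%). Most of the differences were small. The median log2 fold change was 0.33 for the genes called higher and -0.38 for those called lower, and 22 higher and 57 lower genes differed by more than 1.5-fold. The median over all genes tested was -0.02. The 3 values at 4 h and the 3 at 30 min did not overlap for 596 of the 597 called genes. The calls were made on these same values, so this is no separate support for them. Among all genes 11% were higher and 17.8% lower without overlap. The count depended on single libraries, on the groups fitted and on pairing by replicate letter. With the letters A, B and C fitted as a block the count was 187. Without the block it was 593 without 4 h B, 297 without 30 min A, 79 without 4 h A and 72 without 4 h C. It was 64 without 30 min B, 62 without 30 min C and 19 without both C libraries. When only these 6 libraries were fitted it was 12 (1 higher, 11 lower). In each of the 6 leave-outs the same 39 genes stayed called, 3 higher and 36 lower. With libraries scaled to the same median, 318 were higher and 291 lower, and after quantile normalization 344 were higher and 292 lower, so the balance of directions differed with the scaling.

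The largest differences were falls in immediate early transcription factor genes. Fos, which pairs with Jun proteins to form AP-1 (mm9 chromosome 12, 86814851 to 86818219), stood at 4.92, 6.76 and 8.51 FPKM at 4 h, against 81.9, 89.2 and 75.2 FPKM at 30 min. The genes described here as the largest falls were chosen among called genes whose groups did not overlap. For Fos the highest 4 h library lay far under the lowest 30 min library. The unstretched cells averaged 2.89 ± 0.51 FPKM (SD, n = 3). On the log2(FPKM + 1) scale, on which all fold changes here are given and which understates the change of low genes, Fos fell by 3.45 (SE 0.16, adjusted p = 2.08e-07). In bulk RNA, fewer cells expressing a gene and less RNA per cell cannot be told apart. Egr1, a zinc finger transcription factor (chromosome 18, 35020861 to 35024610), had 21.9, 31.9 and 29.7 FPKM at 4 h, against 229, 242 and 225 FPKM at 30 min. Egr1 fell by 3.03 (SE 0.16, adjusted p = 5.66e-07), with 16.9 ± 1.90 FPKM in unstretched cells. Ier2, a nuclear regulator induced by growth factors (chromosome 8, 87185230 to 87186751), had 13.2, 16.0 and 18.1 FPKM at 4 h, against 75.4, 77.3 and 76.7 FPKM at 30 min. Its 30 min replicates lay within 2 FPKM of each other, and it fell by 2.22 (SE 0.10, adjusted p = 1.19e-07).

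Other genes of the Fos, Jun and Egr families fell as well. Fosb, a second Fos family gene (chromosome 7, 19888045 to 19895394), had 0.464, 1.198 and 0.93996 FPKM at 4 h, against 12.3, 11.1 and 5.04 FPKM at 30 min, where library C was low. Egr3 (chromosome 14, 70477252 to 70479964), which encodes another early growth response factor, had 1.49, 4.26 and 2.49 FPKM at 4 h, against 15.9, 19.0 and 13.4 FPKM at 30 min. Egr2 (chromosome 10, 67000617 to 67004936) had 2.06, 3.19 and 2.71 FPKM at 4 h, against 16.1, 15.5 and 12.3 FPKM at 30 min. Fosb, Egr3 and Egr2 had log2 fold changes of -2.42 ± 0.24, -2.24 ± 0.26 and -2.10 ± 0.21 (SE). Junb, a Jun family subunit of AP-1 (chromosome 8, 87500808 to 87502647), had 14.0, 18.7 and 17.9 FPKM at 4 h, against 68.7, 68.0 and 53.5 FPKM at 30 min (log2 fold change -1.85 ± 0.12). The level at 4 h was near the 13.8 ± 0.848 FPKM of unstretched cells. Jun itself (chromosome 4, 94715727 to 94718913) had 32.3, 29.2 and 37.7 FPKM at 4 h, against 65.8, 112 and 89.7 FPKM at 30 min, and fell by 1.38 (SE 0.24, adjusted p = 0.0136). Its call was lost without 4 h A (adjusted p = 0.0518), 30 min B (0.0576) or 30 min C (0.0515).

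Genes that slow proliferation or answer stress were also among the 12 with the largest falls. Btg2, an antiproliferative regulator of mRNA decay (chromosome 1, 135971442 to 135975732), had 33.2, 29.9 and 34.0 FPKM at 4 h, against 102, 151 and 131 FPKM at 30 min (-1.94 ± 0.17). The 4 h values were above the unstretched level of 15.9 ± 2.37 FPKM. Nr4a1, an orphan nuclear receptor (chromosome 15, 101097277 to 101105225), had 14.1, 17.9 and 17.6 FPKM at 4 h, against 66.2, 74.9 and 54.4 FPKM at 30 min (-1.91 ± 0.17). Ch25h, cholesterol 25-hydroxylase (chromosome 19, 34548274 to 34549625), had 13.5, 15.02 and 18.03 FPKM at 4 h, against 40.7, 43.4 and 42.1 FPKM at 30 min (-1.39 ± 0.19). Atf3, a stress-induced bZIP factor (chromosome 1, 192994176 to 193007212), had 27.6, 23.3 and 49.3 FPKM at 4 h, against 59.7, 91.8 and 113 FPKM at 30 min. Both C libraries were the highest of their group, and the fall of 1.401 (SE 0.36, adjusted p = 0.0446) kept its call in 1 of the 6 leave-outs, that of 30 min A. Its adjusted p ranged over them between 0.047 and 0.14. The 10 other genes of this set, Jun left out, kept their calls in all 6 leave-outs.

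**Figure D1:**
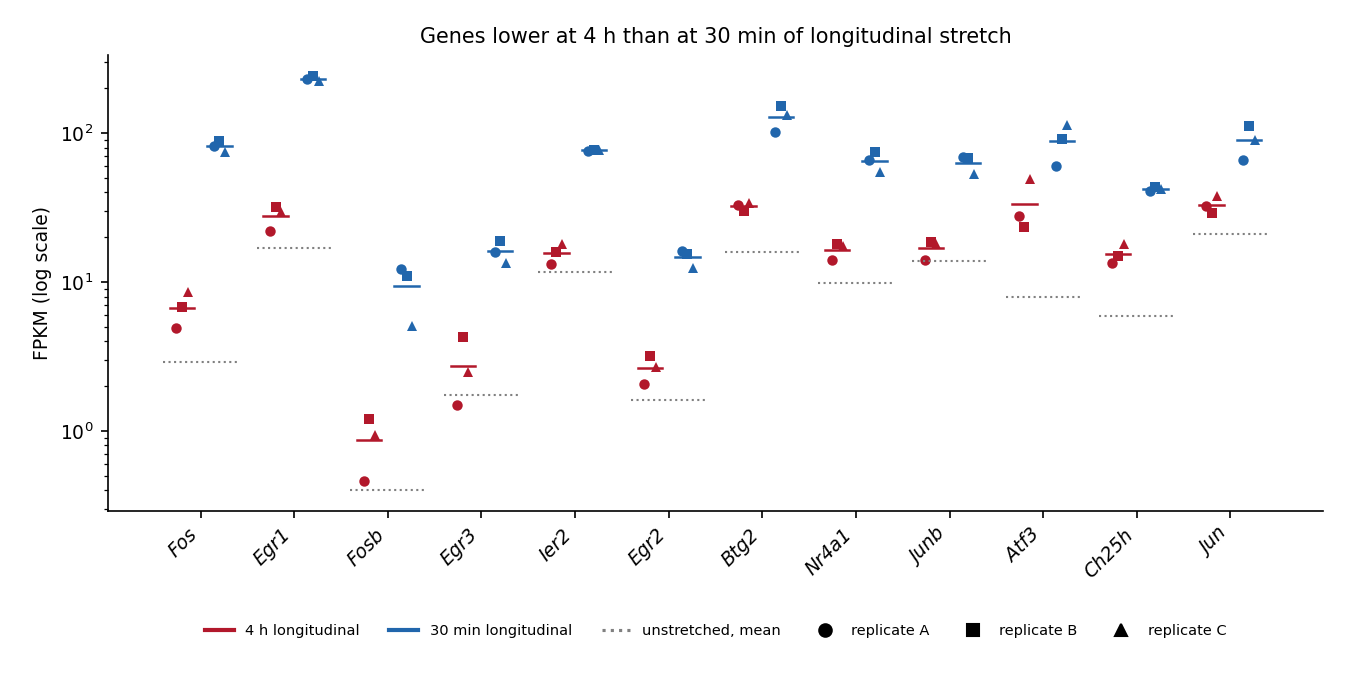
FPKM on a log axis for the 12 genes with the largest falls, with 4 h longitudinal libraries in red left of the 30 min libraries in blue; bars are group means of 3 libraries, symbols are replicates A, B and C, and dotted lines are the mean of the 3 unstretched libraries. The genes were chosen among called genes whose groups do not overlap, so every red symbol lies below every blue one by that choice. For Fos the values were 4.92 to 8.51 FPKM against 75.2 to 89.2 FPKM.

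The promoters of the genes that fell are shown because several are textbook targets of factors that bind short motifs. RefSeq promoter windows (GRCm38.p6) were matched for 9 of the 12 genes. None was matched for Egr1, Egr3 and Ier2, so the shares below leave them out. The 250 bases before each annotated start were searched on both strands for the CArG box, which serum response factor binds. They were also searched for the cyclic AMP response element TGACGTCA and for the AP-1 motif TGANTCA. Where a gene had several windows, the one with the most matches is shown, and a gene was counted if any window matched. Egr2 had 5 windows, and window 1 held 0 matches. In the window shown a CArG box match began 72 bases before the start, and in window 5 it began 133 bases before it. Btg2 and Ch25h held the cyclic AMP response element 166 and 61 bases before the start. No match to any of these motifs was found in the window of Fos, shown as the gene with the largest fall. Bases farther upstream than 250 were not searched, so this does not show that Fos lacks such motifs. Capitals mark the matches, which do not overlap each other.
Fos, chr12:85473640-85473889, plus strand: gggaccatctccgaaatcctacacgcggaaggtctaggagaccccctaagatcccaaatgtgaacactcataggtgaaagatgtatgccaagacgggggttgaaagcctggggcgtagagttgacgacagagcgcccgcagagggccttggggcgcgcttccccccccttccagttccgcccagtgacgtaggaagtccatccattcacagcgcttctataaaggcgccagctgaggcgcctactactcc
Egr2, chr10:67537316-67537565, plus strand: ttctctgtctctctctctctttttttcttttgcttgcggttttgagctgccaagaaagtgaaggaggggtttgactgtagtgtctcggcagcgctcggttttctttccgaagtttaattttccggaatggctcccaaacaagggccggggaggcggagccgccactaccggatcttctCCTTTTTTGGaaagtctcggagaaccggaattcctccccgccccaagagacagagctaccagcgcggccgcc
Btg2, chr1:134079156-134079405, minus strand: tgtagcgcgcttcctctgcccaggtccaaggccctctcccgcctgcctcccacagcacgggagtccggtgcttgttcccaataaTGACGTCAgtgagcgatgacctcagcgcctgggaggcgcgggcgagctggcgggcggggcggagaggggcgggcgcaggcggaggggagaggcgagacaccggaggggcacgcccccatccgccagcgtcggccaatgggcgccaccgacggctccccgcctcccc
Ch25h, chr19:34475149-34475398, minus strand: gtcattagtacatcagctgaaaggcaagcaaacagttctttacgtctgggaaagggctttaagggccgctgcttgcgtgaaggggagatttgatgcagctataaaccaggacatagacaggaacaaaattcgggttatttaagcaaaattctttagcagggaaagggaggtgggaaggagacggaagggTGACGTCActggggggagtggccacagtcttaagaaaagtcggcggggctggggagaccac
These matches are a description of letters and not of bound sites. A CArG box was present in 1 of the 9 genes (11.1%) with the largest falls, in 1 of the 10 matched genes with the largest rises (10%), and in 1.55% of the 9383 tested genes with a window. The cyclic AMP response element was present in 2 of the 9 genes (22.2%), in 0 of the 10 genes that rose most and in 3.01% of the 9383. The AP-1 motif was present in 0 of either set and in 5.3% of the 9383. Over all 371 genes called lower, 294 with a window, the shares were 1.02% for the CArG box, 2.72% for the cyclic AMP response element and 2.72% for the AP-1 motif, none of them above the share in the 9383.

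Among the 40 tested immediate early genes there were 15 falls and 1 rise, and 24 genes were not called, with a median log2 fold change of -0.33. Of all genes 3.09% were called lower and 1.88% higher, so 1 rise in 40 is close to the share of all genes. Besides the genes above, the fallers were Zfp36, Arc, Klf2 and Per1. Zfp36, which destabilizes AU-rich mRNAs, had 16.5, 17.3 and 29.2 FPKM at 4 h, against 51.5, 57.9 and 51.5 FPKM at 30 min (log2 fold change -1.36 ± 0.17). Klf2, a Kruppel-like factor, had 9.48, 13.4 and 11.3 FPKM at 4 h, against 27.2, 19.7 and 27.4 FPKM at 30 min. The clock gene Per1 fell by 0.28 (SE 0.07) and was not called in any leave-out. Gadd45b, a stress sensor that activates p38 signalling, was the 1 that rose, at 19.1, 16.3 and 20.9 FPKM against 12.9, 11.8 and 12.9 FPKM. Without both C libraries 11 fell and 0 rose, and with only the 6 libraries fitted 7 fell.

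Several immediate early genes that were not called stood above unstretched cells at both times. Klf6, a Kruppel-like factor, had 33.1, 34.9 and 37.9 FPKM at 4 h, against 39.5, 45.2 and 49.5 FPKM at 30 min, and did not pass the test (-0.33 ± 0.14, adjusted p = 0.183). Fosl2, the longer-lived Fos family member, had 21.4, 19.7 and 24.8 FPKM at 4 h and 17.2, 20.2 and 24.0 FPKM at 30 min, with overlapping groups (0.10 ± 0.19). Myc, the growth-promoting transcription factor, had 8.31, 8.49 and 12.5 FPKM at 4 h and 11.4, 11.1 and 12.8 FPKM at 30 min. The values of these 3 genes in unstretched cells were lower, at 18.2, 9.45 and 4.04 FPKM. Against unstretched cells, 19 of the 40 genes were higher and 1 lower at 4 h, and 18 were higher and 0 lower at 30 min, both in comparisons that share the control libraries, with medians of 0.64 and 1.15 log2. Over all genes 20.9% were called against unstretched cells at 4 h (10.4% higher, 10.5% lower) and 0.416% at 30 min (0.383% higher, 0.0333% lower), so the near-equal counts stand against unlike backgrounds.

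Some feedback inhibitors of MAP kinase, receptor and calcineurin signalling fell. Of 31 tested, 7 fell (against 3.09% of all genes), 0 rose and 24 were not called, with a median of -0.06. Rgs16, which speeds the switching off of G proteins, had 5.29, 6.21 and 6.05 FPKM at 4 h, against 10.6, 15.8 and 14.4 FPKM at 30 min (log2 fold change -1.08 ± 0.13, adjusted p = 0.00165). Dusp1, a phosphatase of p38 and JNK, had 25.4, 25.03 and 32.3 FPKM at 4 h, against 46.7, 51.4 and 59.3 FPKM at 30 min (-0.91 ± 0.12). Spry2, an inhibitor of receptor tyrosine kinase signalling, had 15.1, 16.6 and 15.9 FPKM at 4 h, against 23.0, 23.2 and 21.4 FPKM at 30 min (-0.48 ± 0.08). The groups did not overlap in these 3, and they were the members called in all 6 leave-outs. Spry2 at 4 h was level with the unstretched 16.1 ± 0.783 FPKM. The ERK phosphatase gene Dusp6 (-0.76 ± 0.16), the NF-kB regulator Nfkbiz (-0.70 ± 0.13), the EGF receptor inhibitor Errfi1 (-0.60 ± 0.14) and Spry4 (-0.59 ± 0.14) were also called. Each lost the call in at least 2 leave-outs. Dusp1, Rgs16 and Nfkbiz were the members called without both C libraries, and 0 were called with only the 6 libraries fitted.

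Signalling ligands and inflammatory genes mostly did not pass the test, and of all genes 3.09% were called lower. Of 39 growth factor, cytokine and hormone genes, 3 fell and 0 rose, with a median of 0.05. Lif, a cytokine of the interleukin 6 family, had 1.26, 0.879 and 1.37 FPKM at 4 h, against 2.69, 2.55 and 3.27 FPKM at 30 min (-0.82 ± 0.17, called in 2 of 6 leave-outs, without 4 h B and without 30 min A). Fgf1 fell by 0.57 (SE 0.13) and Bmp7 by 0.61 (SE 0.15), in 1 and 0 leave-outs. The epiregulin gene Ereg had 3.67, 5.23 and 6.59 FPKM at 4 h, against 9.33, 8.31 and 11.1 FPKM at 30 min, and was not called (adjusted p = 0.0808). Of 24 chemokine and inflammatory genes, Ch25h and the prostaglandin E synthase gene Ptges fell and 22 were not called, with a median of -0.18. The neutrophil chemokine gene Cxcl1 had 3.13, 1.43 and 1.44 FPKM at 4 h, against 5.07, 10.7 and 3.16 FPKM at 30 min (adjusted p = 0.0727).

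Genes outside these families also fell in all leave-outs, and those named here were chosen after their values were seen. Arhgef19 had 1.52, 1.64 and 1.71 FPKM at 4 h, against 3.43, 3.83 and 3.37 FPKM at 30 min (-0.79 ± 0.08, adjusted p = 0.000216). Adcy5, the main cardiac adenylyl cyclase together with type 6, had 22.1, 27.3 and 23.6 FPKM at 4 h, against 38.1, 39.2 and 40.0 FPKM at 30 min (-0.67 ± 0.10). Slc29a1, the equilibrative nucleoside transporter, had 23.9, 33.3 and 24.6 FPKM at 4 h, against 47.7, 46.3 and 44.1 FPKM at 30 min (-0.75 ± 0.12). Plekha7, an adherens junction protein, had 3.58, 4.70 and 3.75 FPKM at 4 h, against 6.49, 7.95 and 8.98 FPKM at 30 min. In all 4 the 30 min values lay close to the unstretched means of 3.70, 37.4, 45.2 and 7.82 FPKM, whereas those of Fos, Egr1 and Ier2 lay far above theirs.

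Among genes of heart muscle function single members fell, in the channel and sarcomere lists a share no larger than the 3.09% of all genes called lower. Kcnj12, a subunit of the inward rectifier potassium channel, had 4.37, 5.84 and 4.42 FPKM at 4 h, against 10.9, 9.51 and 8.52 FPKM at 30 min (-0.86 ± 0.18, adjusted p = 0.0249). It was the 1 of 40 calcium handling and channel genes that was called, and the list median was -0.13. Kcnq1, the slow delayed rectifier subunit, had 14.8, 19.2 and 12.7 FPKM at 4 h, against 27.4, 30.2 and 23.9 FPKM at 30 min, without overlap but not called (adjusted p = 0.0624). Adrb1, the beta-1 adrenergic receptor, had 10.3, 12.04 and 8.04 FPKM at 4 h, against 17.6, 16.2 and 14.3 FPKM at 30 min (-0.63 ± 0.17, adjusted p = 0.0489). With the arrestin gene Arrb1 it made 2 of 30 receptor and regulator genes that fell. Ky, a muscle protein whose loss causes kyphoscoliosis in mice, had 1.90, 2.91 and 1.10 FPKM at 4 h, against 6.24, 7.73 and 4.32 FPKM at 30 min, and was the 1 of 37 sarcomere and Z-disc genes called (-1.27 ± 0.34, adjusted p = 0.0497). Kcnj12, Adrb1 and Ky were each called in 1 of the 6 leave-outs, that of 4 h B.

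The Iroquois factors Irx3 (25.7, 32.2 and 16.4 FPKM at 4 h, against 50.9, 40.1 and 35.6 FPKM at 30 min) and Irx5, which pattern conduction and repolarization in the ventricle, fell by 0.78 and 0.62 (SE 0.21 and 0.16). They were 2 of 38 cardiac and Notch pathway transcription factors, and the others were not called. Of all genes 3.09% were called lower, the share to set beside this list and the glucose list below. Nkx2-5, a core cardiac factor, had 82.7, 86.2 and 81.1 FPKM at 4 h, against 109, 104 and 103 FPKM at 30 min (adjusted p = 0.0873). In glucose metabolism 3 of 31 genes fell, and 0 were called with only the 6 libraries fitted. The 3 were the hexokinase gene Hk1, the glycogen synthase gene Gys1 and Slc2a4, the insulin-responsive glucose transporter. Hk1 had 47.8, 51.0 and 53.9 FPKM at 4 h, against 66.5, 63.7 and 64.1 FPKM at 30 min (-0.34 ± 0.06), and its row overlaps 2210417K05Rik in mm9, whose reads cannot be told apart without strand. Slc2a4 had 22.4, 25.5 and 21.5 FPKM at 4 h, against 35.6, 31.9 and 29.5 FPKM at 30 min. Of these, only Hk1 kept its call in more than 3 leave-outs, losing it without 4 h A (adjusted p = 0.0517).

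Among the genes called higher the largest change was in Neat1, a nuclear noncoding RNA (chromosome 19, 5842302 to 5845478). Neat1 had 126, 112 and 152 FPKM at 4 h, against 46.3, 67.3 and 42.0 FPKM at 30 min. It rose by 1.32 (SE 0.29, adjusted p = 0.027), with 50.5 ± 18.5 FPKM in unstretched cells, and kept its call in 1 leave-out, that of 4 h B. Bach2, a transcriptional repressor (chromosome 4, 32504410 to 32673083), had 7.11, 4.29 and 5.59 FPKM at 4 h, against 1.79, 1.28 and 2.10 FPKM at 30 min (1.28 ± 0.23). Nt5e, the ectonucleotidase that makes adenosine and a target of YAP/TEAD (chromosome 9, 88222447 to 88266927), had 31.4, 20.8 and 44.1 FPKM at 4 h, against 13.8, 9.36 and 14.8 FPKM at 30 min (1.24 ± 0.29). In all 3 genes the 30 min level lay near the unstretched mean.

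Fam13a (chromosome 6, 58883530 to 58974496) had 6.77, 4.50 and 11.2 FPKM at 4 h, against 3.11, 2.49 and 3.18 FPKM at 30 min. Asb5, an ankyrin and SOCS box protein (chromosome 8, 55635684 to 55673189), had 4.98, 4.50 and 5.6003 FPKM at 4 h, against 2.25, 1.19 and 2.52 FPKM at 30 min, and was not called in any leave-out. Kbtbd10, a muscle kelch protein also known as Klhl41 (chromosome 2, 69508177 to 69522296), had 46.9, 29.3 and 63.8 FPKM at 4 h, against 26.7, 23.5 and 27.4 FPKM at 30 min. In each of these 4 h C was the highest library, and in Fam13a and Kbtbd10 the 4 h libraries spread more widely than the 30 min ones. Lrrc32 (chromosome 7, 105642732 to 105650340), which tethers latent TGF-beta, rose by 0.86 (SE 0.19). The stress kinase gene Map3k5 (chromosome 10, 19654332 to 19862556) rose by 0.82 (SE 0.17), the splicing factor gene Prpf39 (chromosome 12, 66137321 to 66174925) by 0.79 (SE 0.16) and Gabarapl1, an autophagy protein (chromosome 6, 129482202 to 129492349), by 0.68 (SE 0.15). Prpf39 overlaps Fkbp3, and Gabarapl1 overlaps 1700101I11Rik. Ptbp2, a splicing repressor (chromosome 3, 119421660 to 119486306), had 13.1, 10.8 and 14.5 FPKM at 4 h, against 7.74, 7.27 and 7.93 FPKM at 30 min. It rose by 0.66 (SE 0.10, adjusted p = 0.00856) and was the 1 of the 12 largest rises called in all 6 leave-outs. Beyond it only Klhl29 (1.64, 1.60 and 1.79 FPKM, against 0.765, 0.703 and 0.769 FPKM) and the bZIP factor gene Cebpg (7.47, 7.85 and 6.68 FPKM, against 5.399, 5.55 and 5.23 FPKM) rose in every leave-out.

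**Figure D2:**
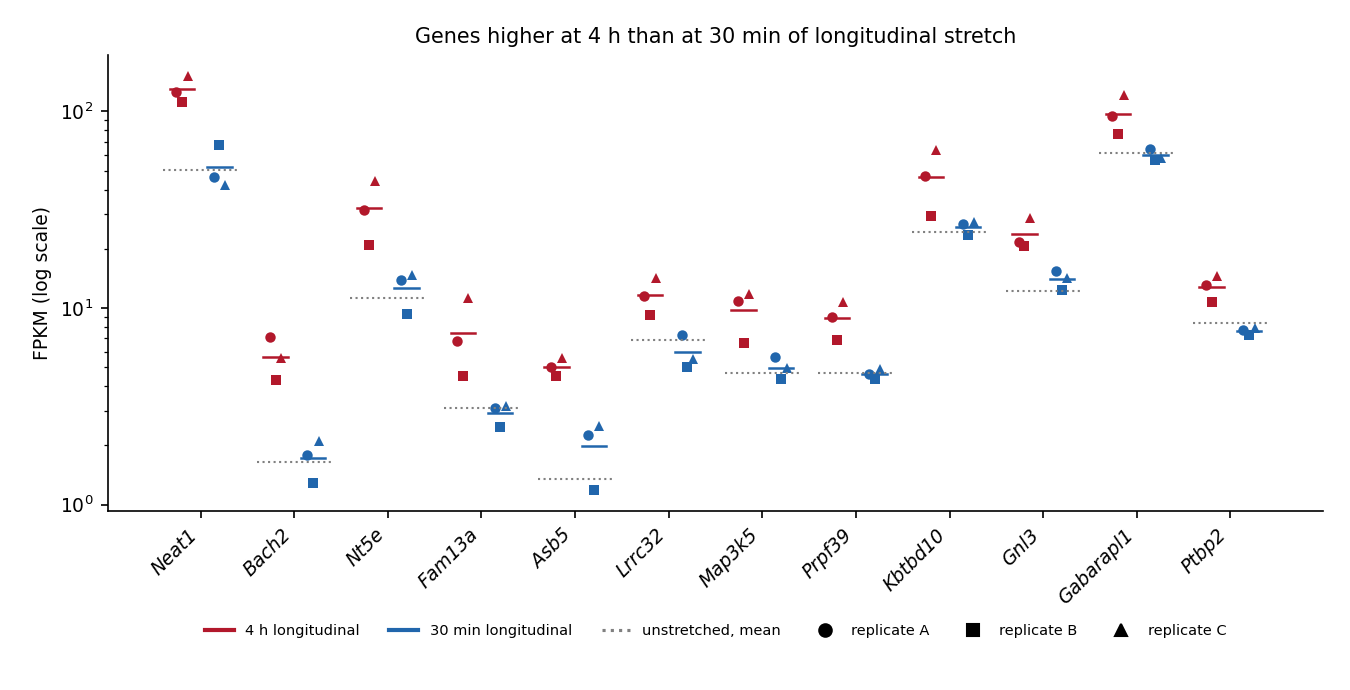
FPKM on a log axis for the 12 genes with the largest rises, with 4 h longitudinal libraries in red left of the 30 min libraries in blue; bars are means of 3 libraries, symbols are replicates and dotted lines are the unstretched mean. The genes were chosen among called genes whose groups do not overlap, so all red symbols lie above all blue ones by that choice. For Neat1 the values were 112 to 152 FPKM against 42.0 to 67.3 FPKM, and 4 h B is often the lowest red symbol.

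Some genes of ribosome production rose by small amounts. Of 61 ribosome biogenesis and nucleolar genes, 10 passed the test as higher and 0 as lower, and 51 did not pass it, with a median of 0.24 (1.88% of all genes were called higher). The log2 fold change was above 0 in 59 of the 61 (96.7%), against 44.9% of all genes tested, and 36 (59%) were higher without overlap, against 11% of all genes. Gnl3, the nucleolar GTPase nucleostemin, had 21.7, 20.7 and 28.6 FPKM at 4 h, against 15.5, 12.3 and 14.2 FPKM at 30 min (0.71 ± 0.15, adjusted p = 0.0243). Its row overlaps Glt8d1, Spcs1 and a small nucleolar RNA. Gar1, a protein of the complexes that make pseudouridine, had 9.29, 8.21 and 9.44 FPKM at 4 h, against 5.78, 6.39 and 5.80 FPKM at 30 min (0.51 ± 0.11). Ddx21, a nucleolar RNA helicase, had 22.7, 21.3 and 27.6 FPKM at 4 h, against 17.1, 16.0 and 17.4 FPKM at 30 min (0.47 ± 0.09), and Noc3l rose by 0.39 (SE 0.07). No member was called in all leave-outs: the count was 4 without 30 min A, 2 without 4 h A, 12 without 4 h B and 0 without 4 h C, 30 min B, 30 min C or both C libraries. The list median stayed between 0.16 and 0.28 in those fits. With only the 6 libraries fitted 0 were called. Against unstretched cells 34 of the 61 were higher at 4 h, where 10.4% of all genes were, and 0 at 30 min, where 0.383% of all genes were.

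Regulators of splicing moved in both directions. Of 35 tested, 5 rose and 2 fell, where 1.88% of all genes were called higher and 3.09% lower. Srsf5, an SR splicing factor, had 89.2, 80.0 and 79.2 FPKM at 4 h, against 123, 125 and 120 FPKM at 30 min (-0.56 ± 0.09, adjusted p = 0.0131), and unstretched cells averaged 65.2 FPKM. Srsf6 had 30.4, 31.0 and 30.3 FPKM at 4 h, against 36.5, 36.7 and 36.9 FPKM at 30 min (-0.26 ± 0.05), a small difference between tight groups. Mbnl2, a muscleblind splicing regulator, had 68.7, 63.4 and 77.8 FPKM at 4 h, against 49.9, 47.2 and 53.3 FPKM at 30 min (0.47 ± 0.10), and Mbnl1, Hnrnpu, Srsf11 and the splicing kinase gene Clk1 rose by 0.26 to 0.40 log2. Clk1 had 16.7, 18.4 and 16.0 FPKM at 4 h, against 12.3, 14.5 and 11.4 FPKM at 30 min, both below the unstretched 21.8 FPKM. Without both C libraries, or with only the 6 libraries fitted, 0 members were called.

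Genes known as markers of cardiac load did not pass the test between the times. Nppb, the gene of B-type natriuretic peptide, had 2106, 1363 and 4041 FPKM at 4 h, against 956, 578 and 3110.3 FPKM at 30 min. The C libraries were highest in both groups, and the log2 fold change was 0.92 ± 1.21 (adjusted p = 0.675). Ctgf, a matricellular target of YAP/TEAD, had 1131, 797 and 1727 FPKM at 4 h and 580, 611 and 1502 FPKM at 30 min (0.52 ± 0.75). Ankrd1, a stretch-responsive titin-binding protein, had 5425, 3899 and 5795 FPKM at 4 h and 2828, 2802 and 4834 FPKM at 30 min (0.56 ± 0.50). Xirp2, an actin-binding protein of the intercalated disc, had 233, 110 and 360 FPKM at 4 h and 45.6, 26.2 and 122 FPKM at 30 min (1.97 ± 0.99, adjusted p = 0.244). The groups overlapped in each of these genes. Cyr61, the relative of Ctgf, went the other way, at 174, 130 and 282 FPKM at 4 h, against 299, 402 and 603 FPKM at 30 min, without overlap and not called (-1.17 ± 0.41, adjusted p = 0.113).

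The skeletal alpha-actin gene Acta1 had 105, 61.6 and 283 FPKM at 4 h and 89.96, 132 and 380 FPKM at 30 min, and Rcan1, an inhibitor of calcineurin, had 158, 147 and 224 FPKM and 91.2, 64.5 and 231 FPKM. Myh7, the beta myosin heavy chain gene, whose row overlaps a microRNA and D830015G02Rik, had -0.14 ± 0.18, and the connexin 43 gene Gja1 had -0.20 ± 0.15. Of 26 load- and hypertrophy-associated genes 0 were called, with a median of 0.21, and of 33 cytoskeletal genes regulated by SRF and MRTF 0 were called, with a median of 0.17. Of 20 YAP/TEAD targets Nt5e and Gadd45b rose and 18 were not called, where 1.88% of all genes were called higher. The SE of the Nppb difference exceeds the difference itself, so these data do not show that load genes stayed level.

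**Figure D3:**
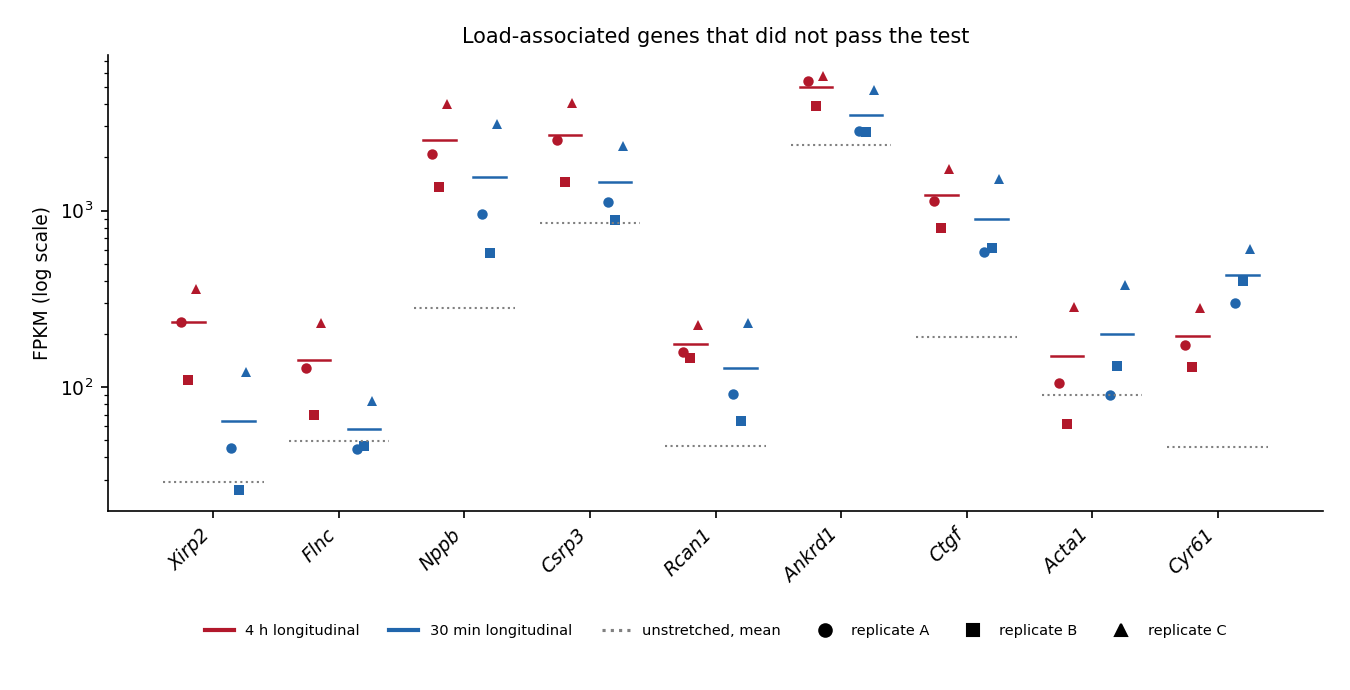
FPKM on a log axis for 9 load-associated genes that were not called, with 4 h longitudinal libraries in red left of the 30 min libraries in blue; bars are means of 3 libraries, symbols are replicates A, B and C and dotted lines are the unstretched mean. Triangles, the C libraries, are the highest of each group, as for Nppb with 4041 FPKM at 4 h and 3110.3 FPKM at 30 min, and the groups overlap except for Cyr61.

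The remaining gene groups held few calls, to be set beside the 1.88% of all genes called higher and the 3.09% called lower. DNA replication and mitosis genes had the lowest median after the immediate early genes, -0.27 over 48 genes, with 47 below 0 (97.9%, against 55.1% of all genes tested) and 0 called. Mcm7, a subunit of the replicative helicase, had 8.01, 9.11 and 8.29 FPKM at 4 h, against 10.02, 12.5 and 13.8 FPKM at 30 min (adjusted p = 0.0647). Heat shock genes had a median of 0.20 over 35 genes, with the cochaperone gene Dnaja1 called higher. Of 38 translation factor genes Eif5b rose. Of 26 Myc, polyamine and nucleotide genes the polyamine-degrading Sat1 rose, at 63.7, 73.7 and 78.8 FPKM against 56.3, 56.6 and 52.2 FPKM. Of 35 atrophy and autophagy genes Gabarapl1 rose and the lysosomal factor Tfeb and Fbxo21 fell. The adhesion genes Tln2 and Dsc2 (2 of 42), the proteases Mmp15 and Adamts15 (2 of 27), the sterol gene Dhcr7 (1 of 27) and Per1 (1 of 18 clock genes) also fell.

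No member was called among 46 extracellular matrix, 38 fatty acid oxidation, 48 oxidative phosphorylation, 37 ATF4 and unfolded protein response and 28 Nrf2 and oxidative stress genes, with medians between -0.07 and 0.12. Within the last list the 4 h C library stood apart: Txnrd1, thioredoxin reductase, had 39.3, 37.1 and 126 FPKM at 4 h, against 37.4, 30.3 and 30.2 FPKM at 30 min. Srxn1, sulfiredoxin, had 17.8, 13.6 and 54.3 FPKM at 4 h, against 16.7, 11.97 and 13.3 FPKM at 30 min. Neither passed the test (adjusted p = 0.173 and 0.222).

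**Figure D4:**
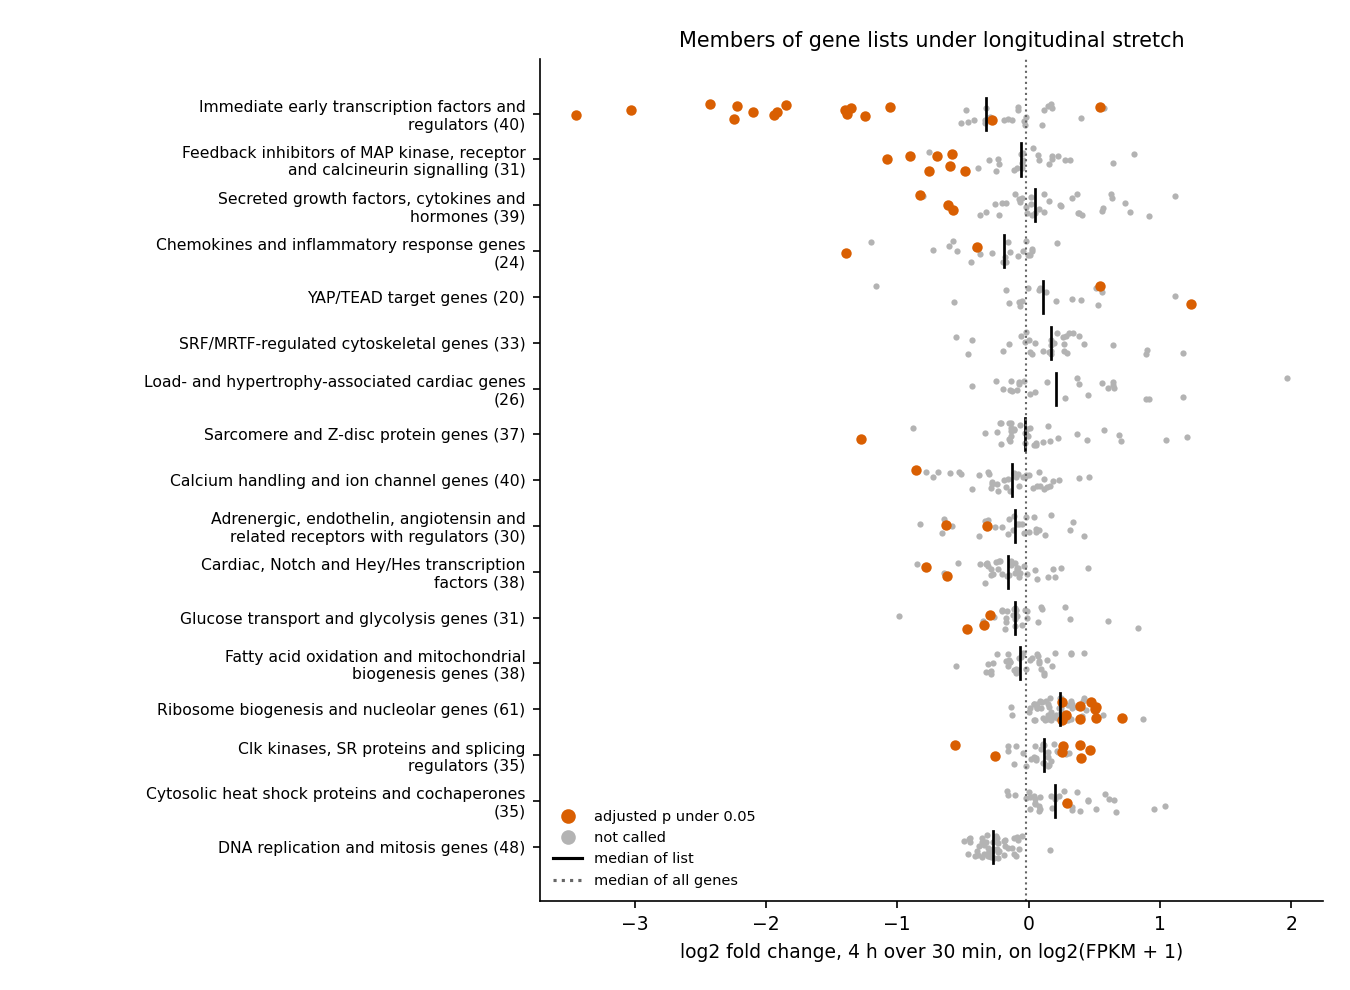
Each point is 1 tested gene, placed by its log2 fold change of 4 h over 30 min on the log2(FPKM + 1) scale, with numbers of genes in brackets; orange points passed an adjusted p of 0.05, black bars are list medians and the dotted line is the median of all genes tested, -0.02. The immediate early genes spread down to -3.45, the ribosome biogenesis genes lie mostly right of the dotted line with a median of 0.24, and the DNA replication genes lie mostly left of it with a median of -0.27.

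Markers of other cell types held 0 calls. The 14 macrophage and leukocyte markers tested were all above 0 in log2 fold change, against 44.9% of all genes, with a median of 0.23. The 16 in the table summed to 573.9 to 641 FPKM at 4 h and 462 to 572.2 FPKM at 30 min. These ranges nearly touched, and the unstretched sums ran from 440 to 620 FPKM. Of the 14 tested, 6 (42.9%) were higher without overlap, against 11% of all genes. Lyz2, lysozyme, was the most abundant of them, at 384, 338 and 361 FPKM at 4 h against 329, 290 and 263 FPKM at 30 min. The 15 fibroblast markers summed to 3668 to 4095 FPKM at 4 h and 3434 to 3824 FPKM at 30 min. The 14 endothelial markers in the table, 13 of them tested, summed to 75.7 to 89.3 FPKM at 4 h and 69.2 to 88.0 FPKM at 30 min. Medians were 0.19 for 13 smooth muscle and pericyte markers, -0.05 for 11 epicardial markers and -0.12 for 2 glial and neuronal markers. The 17 myocyte markers summed to 23981 to 30685 FPKM at 4 h and 25541 to 32009 FPKM at 30 min, with a median of -0.06. No marker listed was at 0 in a longitudinal library, and no erythroid marker was in the table. The part of cell makeup in the results was not tested.

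The genes called also differed in base composition. Transcripts of the genes called higher had a median GC content of 43.7% and a median length of 4640 bases, those called lower 53.5% and 3189 bases, and all tested genes 49.7% and 3387 bases, from the longest transcript in GENCODE M21. Of the 2975 genes with the lowest GC content 136 were called higher and 26 lower, and of the 2975 with the highest 11 were called higher and 155 lower. GC content also moved with library: the median of low-GC minus high-GC genes, each relative to its mean over all libraries, was 0.12, 0.19 and 0.01 log2 in the 4 h libraries A, B and C, against 0.01, 0.01 and -0.08 in the 30 min libraries. With the GC trend of each library removed, a step chosen after seeing the data, 341 genes were called (149 higher, 192 lower), 279 of them shared with the 597. Under that step 13 immediate early genes fell and 12 ribosome biogenesis genes rose.

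The same durations were compared under transverse stretch, in libraries that share none with the longitudinal ones. There 36 genes (0.3%) differed between 4 h and 30 min, 7 higher (0.0583%) and 29 lower (0.242%). Of them 31 were also called under longitudinal stretch, 27 lower and 4 higher on both axes, which is 86.1% of the transverse and 5.19% of the longitudinal calls. Fos had 3.25, 4.70 and 3.69 FPKM at 4 h of transverse stretch, against 70.6, 56.0 and 65.0 FPKM at 30 min (-3.74 ± 0.16), and Ier2 fell by 2.23 (SE 0.10). Across all genes the log2 fold changes of the axes had a Pearson r of 0.50, a description over 12005 genes that share 1 fit and are not independent. Of the 597 genes called under longitudinal stretch, 560 (93.8%) had the same sign under transverse stretch, against 8048 (67.0%) of all 12005 genes. Ribosome biogenesis genes had a transverse median of 0.02, with 0 called.

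The difference between the axes was tested as an interaction, and 1 of 12005 genes was called (0.00833%), with 598 genes (4.98%) at an unadjusted p under 0.05. An excess of calls on one axis is therefore not shown to be a difference in response. The called gene, Gm8615 (chromosome 5, 149931141 to 149993612), is a predicted gene under the level set for naming, and is named after its values were seen. It had 2.95, 2.92 and 2.07 FPKM at 4 h and 2.66, 2.71 and 2.20 FPKM at 30 min of longitudinal stretch. Under transverse stretch it had 0.0247, 0.0223 and 0 FPKM at 4 h, against 2.77, 2.36 and 3.36 FPKM at 30 min. The interaction was 1.95 ± 0.16 log2 (adjusted p = 0.00032). Among genes over 5 FPKM, those of smallest interaction p were 1810043H04Rik, the proteasome assembly gene Psmg1, 1700040I03Rik, Acbd4 and the Ral regulator gene Rgl1. Psmg1 had a log2 fold change of -0.33 ± 0.07 under longitudinal and 0.15 ± 0.07 under transverse stretch. Their interactions were between -0.50 and -0.33, and none passed the test (adjusted p = 0.795 to 0.837). For Fos the interaction was 0.29 ± 0.23, for Neat1 0.57 ± 0.41 and for Gnl3 0.48 ± 0.21.

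**Figure D5:**
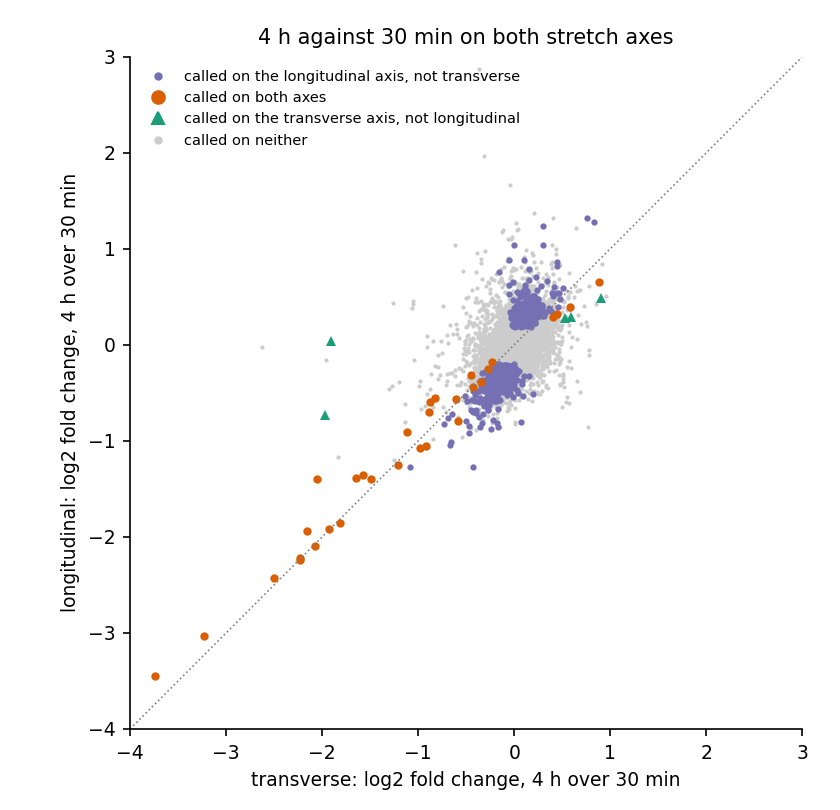
Log2 fold change of 4 h over 30 min for each tested gene, on log2(FPKM + 1), under longitudinal stretch (y axis) against transverse stretch (x axis); the dotted line marks equal values. The 31 genes called on both axes lie near the line down to Fos at -3.45 and -3.74, and the triangle near 0 on the y axis is Gm8615, at 0.04 and -1.91.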

How the data were processed

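Poly(A) RNA libraries (TruSeq v2, which does not mark strand, per the labels' protocols) were sequenced from 15 cultures. Per the file headers, the authors deposited 1 FPKM value per gene and library. The submitters' processing notes list TopHat 1.4.1, Cufflinks 2.0.2, FastQC and the build mm9, without role or order. The absolute depth is unknown, so no counting interval is given. Groups come from sample titles and the devices are separate biological replicates per the series' design. Of value columns belonging to no listed sample, 0 were used. Positions are the table's mm9 coordinates, with 1 added to each start because starts count from 0.

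Values were analysed as log2(FPKM + 1) with limma 3.58.1 in R 4.3.3 (trend and robust options). All 15 libraries entered 1 fit of 5 group means with 10 residual degrees of freedom, and p-values were two-sided and Benjamini-Hochberg adjusted over 12005 genes. Small RNA rows (152 in the table, 109 over the filter of 1 FPKM in 3 libraries) were left out. Named genes were, per direction, the 12 largest changes among called genes whose groups did not overlap and whose mean reached 5 FPKM in 1 group, the 4 members of smallest p per list, 5 interaction genes and a fixed set (Fos, Egr1, Atf3, Nppb, Ctgf, Cyr61, Ankrd1, Rcan1, Acta1, Myh7, Gja1). Other genes named were chosen after their values were seen. The members and lists were chosen with earlier results of these data known. Alternatives were other pseudocounts, filters, scalings, fits and leave-outs, and, added after seeing the data, removal of each library's GC trend and leaving out both longitudinal C libraries. Transcript GC content matched 11900 of the 12005 genes (99.1%). Exact tests of 3 against 3 libraries cannot go below p = 0.1, so none was used.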

Additional observations from a re-analysis of the deposited data

Results flagged for a closer look

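Gm8615 differed between the axes: the difference of its 4 h minus 30 min changes, longitudinal minus transverse, was 1.95 log2 (SE 0.16, adjusted p = 0.00032 in limma). It was near 0 FPKM in all 3 transverse 4 h libraries and between 2.07 and 3.36 FPKM in the other 9 stretch libraries, and its longitudinal change was 0.04 ± 0.12.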

How the results depend on the processing

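For 4 h against 30 min of longitudinal stretch, 597 genes were called; the count was 12 with only the 6 libraries of the compared groups fitted, 341 with GC trends removed, 19 without both C libraries, and 62 to 593 in leave-outs of 1 library. With a replicate block, A, B and C taken as pairs, it was 187 (39 with GC trends removed as well). For ribosome biogenesis genes the block gave 3 calls in place of 10, and 1 (Gar1) with GC removal, while 13 and 12 immediate early genes fell, against 15 without it. Deviations of same-lettered libraries correlated at 0.095 for A, 0.46 for B and 0.62 for C, and since A lies under 0.1 the letters were not taken as pairs; the labels do not say whether devices of 1 letter were handled together. B and C correlated best with their own letter, whereas the highest r of an A library with another letter was 0.27. For transverse stretch the 36 calls became 15 with only its libraries, 23 with the replicate block, 22 with block and GC removal, and 18 to 38 in leave-outs. The 1 interaction call became 2 without a filter, 0 at a filter of 5 FPKM (460 at an unadjusted p under 0.05 in limma), 3 with small RNA rows kept, and 1 to 2 in leave-outs. No named gene that was called reversed its direction under these settings. Pseudocounts of 0.1 and 5, no filter, a filter of 5 FPKM, small RNA rows, both scalings and the plain limma fit kept the longitudinal count between 456 and 636. The cause of the shifts was not tested.

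The limits are these. Each group has 3 libraries, so the spread is poorly known and most calls rest on the spread shared with the other groups. FPKM carries no counts, and genes near 1 FPKM are the least certain.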
